A study of Mus musculus with 6 samples.

Results

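The genes described here are the ligands, receptors and antagonists of the Wnt pathway: every gene whose symbol on the array is Wnt, Fzd, Dkk, Sfrp, Rspo or Axin followed by a digit, together with Lrp5, Lrp6, Wif1, Lgr5, Rnf43, Znrf3 and Wls. The rule found 51 of the 18193 genes measured, 50 of them protein-coding. The other one is Fzd10os, a transcript from the strand opposite Fzd10, which met the wording of the rule without being a receptor. RNA was compared between 2 groups of 3 arrays each, all from CT26, a cell line grown from a colon carcinoma of the BALB/c mouse strain. The group called control was transfected with the empty vector pU6-m3. The group called shSep15 carried the same vector with a hairpin against Sep15, a selenoprotein of the endoplasmic reticulum, now named Selenof. The hairpin held the 19-nucleotide cDNA stretch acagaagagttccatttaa, shown because it is the only agent that distinguished the groups. No other hairpin or rescue was analysed here, the labels do not say whether the cells were clones or pools, and the 3 RNA samples of a group are not stated to come from separate cultures, so p-values measure the spread between these samples.

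Wnt proteins are secreted lipid-modified ligands that bind Frizzled receptors at the cell surface. With the coreceptors Lrp5 and Lrp6 they silence a destruction complex built on Axin and Apc, so that beta-catenin (Ctnnb1) accumulates and drives transcription with TCF/LEF factors. R-spondins and their receptor Lgr5 protect Frizzleds from removal by the ubiquitin ligases Rnf43 and Znrf3, while Dkk, Sfrp and Wif1 proteins block ligand or coreceptor outside the cell. In the colon the pathway maintains crypt stem cells, and its constant activation is the usual first step of colorectal cancer.

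Values are log2 expression levels, and differences are shSep15 minus control on the log2 scale. The array medians lay between 5.83 and 5.87, and arrays correlated at 0.993 to 0.995 on average within their group, against 0.977 to 0.979 across groups. Selenof read 12.41, 12.44 and 12.35 on the control arrays and 9.34, 9.59 and 9.50 on the shSep15 arrays, a difference of −2.92 that left 13.2% of the control signal (limma adjusted p = 2.43e-07); averaged with its other probe set, which was near background, the difference was −1.47. A gene is called near background when both group means lie under 6.02, the level that 95% of the probe sets for olfactory and vomeronasal receptors stay under. Of 13 markers of colon epithelium, 5 were above that level, Epcam, Krt8, Krt18, Krt20 and Lgals4, while Cdh1, Cdx1, Cdx2 and Vil1 were near background, so the labelled origin rested on few markers. The mean log2 level of the 13 ran from 5.85 to 6.02 over the control arrays and from 5.42 to 5.57 over the shSep15 arrays. Of the 13, 3 were lower (Krt18 at −2.16, Krt20 at −2.13 and Lgals4 at −1.0) and 0 higher. Epcam and Krt8 did not pass the threshold, nor did the 8 near background, which differed by −0.21 to 0.14. The lower mean therefore does not describe the list as a whole. Leukocyte markers ran from 6.15 to 6.27 and from 5.93 to 6.10; of the 7, Cd3e, Cd68, Csf1r and Laptm5 were above background, Ptprc was not, 2 were lower (Cd68 at −1.48 and Itgam at −0.37) and 0 higher. Endothelial markers ran from 5.19 to 5.22 and from 5.19 to 5.26, with 0 called. The 7 fibroblast genes averaged 7.65 to 7.71 and 7.24 to 7.57, means that hide large shifts in both directions. In shSep15 cells 3 were higher (Pdgfra at 1.35, Col1a1 at 1.32 and Col1a2 at 0.64). Another 2 were lower (Pdgfrb at −3.36 and Dcn at −1.72). The part of these shifts in the Wnt genes was not tested, and in RNA from whole cultures fewer cells of a type and less RNA per cell cannot be told apart.

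Of the Wnt genes, 6 fell and 0 rose. Dkk2 fell most, followed by Fzd7, the secretion factor Wls, Fzd5, Fzd3 and Wnt9a; they span an antagonist, receptors, a ligand and the ligand's carrier. By count this was 6 of 51 members lower and 0 higher (limma, adjusted p under 0.05 over all probe sets). Of all genes 12.8% were lower, 12.2% higher and 25.0% either, so the share of members that fell, 11.8%, was close to that of genes at large. Among genes above background 20.0% were lower, 19.2% higher and 39.2% either. Of the 23 members above background, 6 were lower (26.1%) and 0 higher. All 6 members that fell are of this kind, Dkk2 through its control level alone. At an unadjusted limma p under 0.05, 4 of 51 members had a positive difference (Fzd2, Fzd6, Rspo2, Wnt3) and 10 a negative one. Wnt3 among the former and Dkk4 among the latter were near background. The share of all genes at this cut was not counted, so these 2 counts are not read in either direction. The median difference was −0.01 over the 51 members and 0.01 over all genes. The groups did not overlap in 9 members with lower and 5 with higher shSep15 values, against 18.7% and 19.3% of all genes. Among the members above background these counts were 8 and 3 of 23, against 27.4% and 27.8% of all genes above background. Near background in both groups were 28 members, with differences of −0.20 to 0.19 and no call. The remaining 23 include Dkk2, above background in control cells alone, and Rspo2, above it in shSep15 cells alone.

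**Figure D1:**
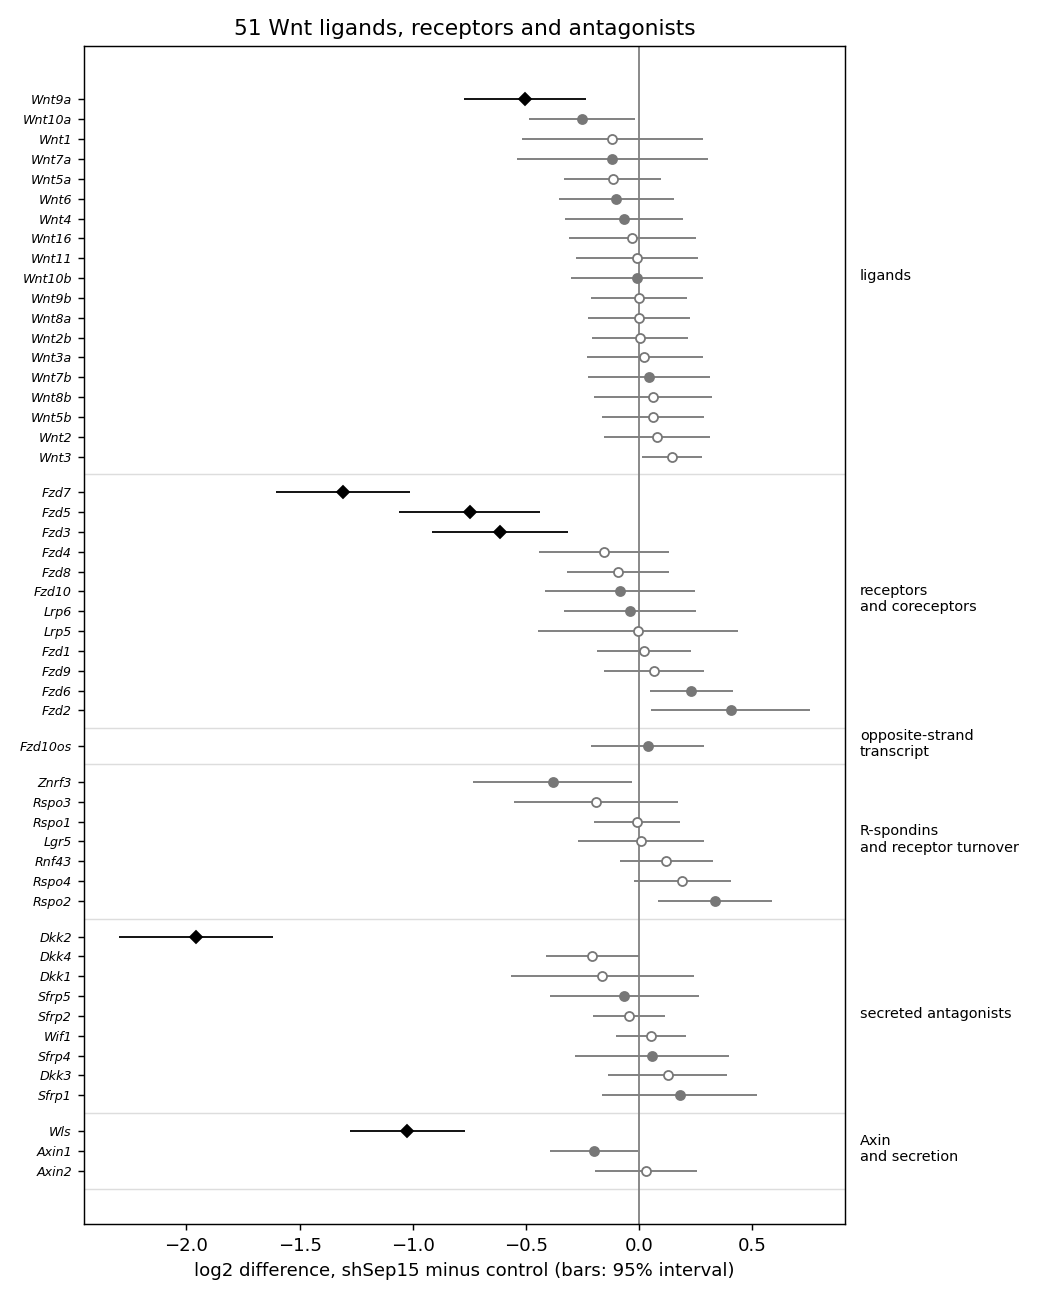
Log2 difference between shSep15 and control cells (x axis) for the 51 members, 1 row each, in the order of their roles; bars are 95% intervals of the limma fit, black diamonds are members past the threshold, filled circles are other members above background and open circles members near background. The 6 diamonds lie between −1.96 and −0.50, and the other 45 members lie between −0.38 and 0.41.

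Of the 6 genes that fell, 5 have an entry in the RefSeq promoter table of build GRCm38.p6; Fzd3 has none. The promoters of Fzd7, Fzd5, Wls and Dkk2, the members that fell most among these, are shown to let a reader see how their start regions differ in build. Whether these genes share any regulation was not tested. Each run covers 250 bases before and 50 bases after the annotated start, 5′ to 3′ on the gene's strand. Capitals mark the GC box GGGCGG, the TATA box TATAAA and the TCF/LEF motif, CTTTG followed by 2 bases that are each A or T, all searched on both strands.
Fzd7, chr1:59481897-59482196 (+ strand): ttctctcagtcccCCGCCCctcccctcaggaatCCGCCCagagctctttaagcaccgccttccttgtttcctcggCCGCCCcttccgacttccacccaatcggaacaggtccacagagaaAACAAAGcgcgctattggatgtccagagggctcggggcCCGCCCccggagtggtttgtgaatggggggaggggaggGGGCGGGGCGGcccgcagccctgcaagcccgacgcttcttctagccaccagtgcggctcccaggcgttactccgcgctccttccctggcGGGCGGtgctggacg
Fzd5, chr1:64737701-64738000 (- strand): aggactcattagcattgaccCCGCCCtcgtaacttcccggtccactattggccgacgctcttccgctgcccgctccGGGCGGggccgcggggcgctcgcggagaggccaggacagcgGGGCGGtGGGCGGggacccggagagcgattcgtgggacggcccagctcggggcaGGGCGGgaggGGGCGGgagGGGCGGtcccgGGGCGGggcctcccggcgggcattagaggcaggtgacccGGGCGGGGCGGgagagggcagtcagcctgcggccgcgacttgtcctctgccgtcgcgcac
Wls, chr3:159839400-159839699 (+ strand): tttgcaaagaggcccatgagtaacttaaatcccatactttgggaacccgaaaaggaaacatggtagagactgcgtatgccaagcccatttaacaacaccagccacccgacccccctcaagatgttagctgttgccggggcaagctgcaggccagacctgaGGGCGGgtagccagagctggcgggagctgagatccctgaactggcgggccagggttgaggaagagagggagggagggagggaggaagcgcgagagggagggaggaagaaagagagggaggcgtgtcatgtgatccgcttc
Dkk2, chr3:132085042-132085341 (+ strand): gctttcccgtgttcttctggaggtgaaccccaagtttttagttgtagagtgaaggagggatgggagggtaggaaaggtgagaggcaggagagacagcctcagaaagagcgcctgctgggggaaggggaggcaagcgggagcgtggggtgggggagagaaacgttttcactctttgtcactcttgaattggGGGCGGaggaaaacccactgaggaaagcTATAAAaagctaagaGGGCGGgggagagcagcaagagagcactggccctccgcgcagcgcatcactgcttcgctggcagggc
The GC box occurred 7 times for Fzd7 and 10 times for Fzd5, with 1 overlapping pair in each, 1 time for Wls and 2 times for Dkk2, and 35.7% of all 32851 promoters held at least 1. The G and C content was 66.7% for Fzd7 and 75.7% for Fzd5, against 58.0% for Wls and 57.7% for Dkk2 and a median of 52.7% over all promoters. Dkk2 alone among the 4 held a TATA box, its first base at position −32 from the start, as did 13.6% of promoters. The TCF/LEF motif was found at Fzd7, on the reverse strand from position −130, and in 16.9% of promoters; the windows of Fzd5, Wls and Dkk2 do not hold these letters. The Wnt9a window, not printed, had 5 GC boxes, a G and C content of 83.3% and no TATA box or TCF/LEF motif. A match is a description of the sequence and does not show a bound factor.

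Among the 19 ligands, Wnt9a was lower and the other 18 did not pass the threshold; 12 were near background in both groups. Wnt9a, a ligand known from joint and haematopoietic development, read 6.71, 6.90 and 6.87 on the control arrays and 6.22, 6.47 and 6.29 on the shSep15 arrays. The groups did not overlap, and both lie not far above the background level. The difference was −0.50 (SE 0.12, limma adjusted p = 0.0159), with 70.6% of the control signal remaining; averaged with its near-background probe set it was −0.28 (limma adjusted p = 0.0345). This call ended without control replicate 2 (−0.46, limma adjusted p = 0.0649), without shSep15 replicate 1 (−0.45, 0.0638) or without shSep15 replicate 3 (−0.48, 0.0645). Wnt10a, a canonical ligand of skin and teeth, was clearly above background, at 8.89, 8.69 and 8.72 in control cells and 8.52 on each of the 3 shSep15 arrays. The groups were separate, but the difference of −0.25 missed the threshold (95% interval −0.48 to −0.02, limma adjusted p = 0.144).

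The remaining ligands above background gave differences close to 0 with groups that overlapped. Wnt7b, a canonical ligand of epithelia, read 7.17, 7.47 and 7.31 in control and 7.38, 7.40 and 7.30 in shSep15 cells. Wnt7a read 7.13, 7.44 and 7.57 in control and 6.89, 7.55 and 7.34 in shSep15 cells. For Wnt6 the values were 6.66, 6.60 and 6.68 in control and 6.52, 6.68 and 6.45 in shSep15 cells. In all 3 of these genes shSep15 replicate 2 was the highest shSep15 array, and in Wnt7a shSep15 replicate 1 was the lowest of the 6 arrays. Wnt4 read 6.22, 6.51 and 6.41 in control and 6.28, 6.32 and 6.33 in shSep15 cells, and Wnt10b 6.15, 6.30 and 6.08 against 6.38, 6.08 and 6.04. The intervals of the differences show what could have been missed: −0.22 to 0.32 for Wnt7b, −0.54 to 0.31 for Wnt7a, −0.35 to 0.15 for Wnt6, −0.33 to 0.20 for Wnt4 and −0.30 to 0.28 for Wnt10b. The 12 near background were Wnt1, Wnt2, Wnt2b, Wnt3, Wnt3a, Wnt5a, Wnt5b, Wnt8a, Wnt8b, Wnt9b, Wnt11 and Wnt16, which include the classical canonical ligands Wnt1 and Wnt3a and the non-canonical ligands Wnt5a and Wnt11; their differences ran from −0.12 to 0.15.

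Frizzled receptors were split. Of 10 measured, 6 were above background, and of these Fzd7, Fzd5 and Fzd3 fell while Fzd6 and Fzd2 had higher means that did not pass. Fzd7, a receptor of intestinal stem cells and of many carcinomas, read 9.03, 9.11 and 8.84 in control and 7.84, 7.50 and 7.73 in shSep15 cells. The groups were far apart, with a difference of −1.31 (SE 0.13, limma adjusted p = 0.000142), and 40.4% of the control signal remained. The other Fzd7 probe set differed by −0.33 without passing (limma adjusted p = 0.0647). Averaged over both, the difference was −0.82 (limma adjusted p = 0.000126). Fzd5, the receptor tied to Paneth cell maturation, read 7.16, 7.02 and 6.84 in control and 6.33, 6.06 and 6.40 in shSep15 cells. The groups were separate with the shSep15 arrays just above background, and the difference was −0.75 (SE 0.14, limma adjusted p = 0.00429). With the mean of its probe sets, of which the second was near background, the difference of Fzd5 was −0.34 (limma adjusted p = 0.0176). Fzd3, a receptor of planar cell polarity and axon guidance, read 7.95, 7.71 and 7.61 in control and 7.28, 7.03 and 7.12 in shSep15 cells. The groups did not overlap, the difference was −0.61 (SE 0.13, limma adjusted p = 0.00986), and the 3 other probe sets of Fzd3 above background fell too (−0.90 to −0.87).

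Receptors that did not pass the threshold lay on either side of 0. Fzd2, a receptor for Wnt5a-type ligands, read 8.65, 8.62 and 8.27 in control and 8.73, 8.84 and 9.19 in shSep15 cells. Its groups were separate and the difference was 0.41 (95% interval 0.06 to 0.76, limma adjusted p = 0.113). Of its 2 other probe sets, both above background, 1 was higher (0.48, limma adjusted p = 0.0412) and 1 differed by 0.32, and the mean of the probe sets was just past the threshold (0.40, limma adjusted p = 0.0481). Without shSep15 replicate 3, the highest array, the difference of Fzd2 was 0.27 (limma adjusted p = 0.348). Fzd6, known from planar polarity of skin and hair, read 10.69, 10.62 and 10.49 in control and 10.75, 10.87 and 10.87 in shSep15 cells. The difference of 0.23 (95% interval 0.05 to 0.42) missed the threshold at limma adjusted p = 0.0845, and passed it when dim probe sets were left out of the adjustment (0.0465). The other Fzd6 probe set above background differed by 0.09 (limma adjusted p = 0.744), and averaged over all of its probe sets Fzd6 differed by 0.15 (limma adjusted p = 0.261). Lrp6, the main coreceptor, was clearly expressed, at 9.52, 9.13 and 9.07 in control and 9.22, 9.16 and 9.21 in shSep15 cells. Its groups overlapped fully and the difference was −0.04 (95% interval −0.33 to 0.25). Lrp5 was near background, with a difference of 0.00 (95% interval −0.45 to 0.44). Fzd10 read 6.66, 6.72 and 6.95 against 6.49, 6.94 and 6.66, and its opposite-strand transcript Fzd10os 5.998, 6.20 and 6.15 against 6.07, 6.24 and 6.15, both with overlapping groups. Fzd1, Fzd4, Fzd8 and Fzd9 were near background.

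**Figure D2:**
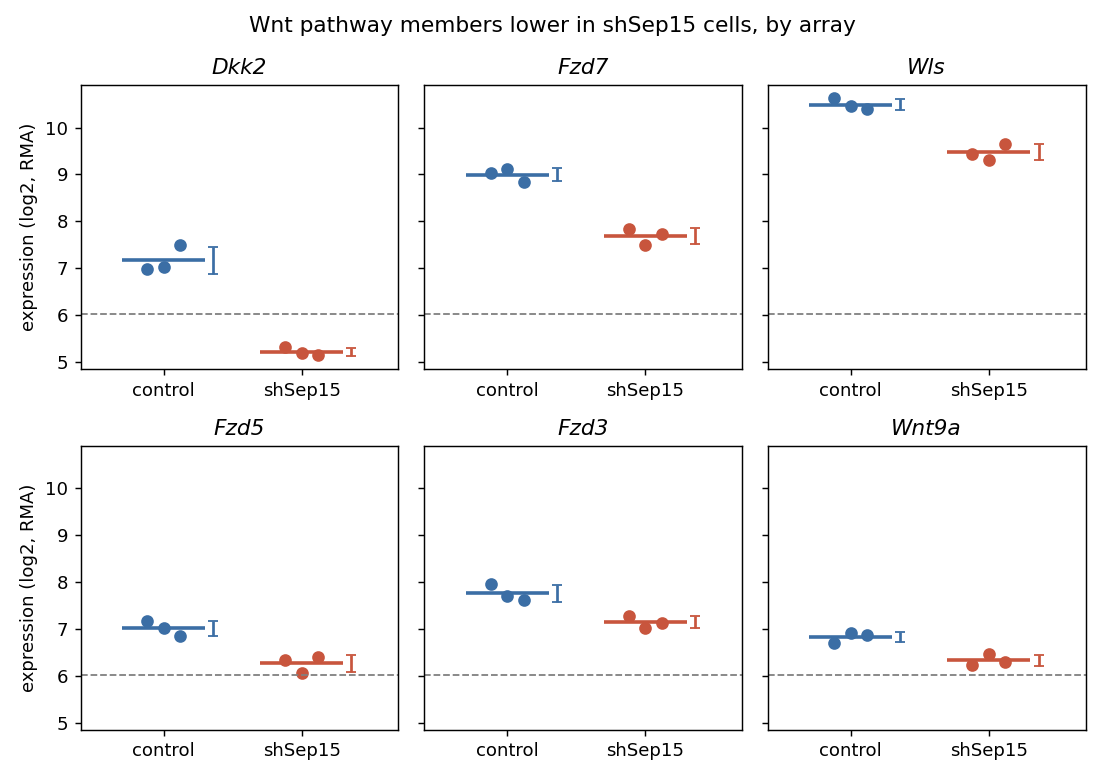
Log2 expression (y axis) of the 6 members that fell, on each of the 3 control arrays (blue) and 3 shSep15 arrays (red); horizontal lines are group means, bars to their right the SD, and the dashed line the background level of 6.02. In each panel all red points lie below all blue points, and those of Dkk2 lie under the dashed line.

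R-spondins and the receptor turnover system gave no call in 7 genes. Znrf3, a ligase that removes Frizzleds from the membrane, read 7.75, 7.88 and 7.49 in control and 7.54, 7.08 and 7.34 in shSep15 cells. The groups overlapped at 1 array of each, and the difference was −0.38 (95% interval −0.73 to −0.03, limma adjusted p = 0.138). Rspo2, a secreted agonist, read 5.70, 5.79 and 5.95 in control and 6.12, 6.24 and 6.10 in shSep15 cells. Its control arrays lay under and its shSep15 arrays above the background level, and the difference of 0.34 was not past the threshold (limma adjusted p = 0.0677), though it was without control replicate 3 (0.41, limma adjusted p = 0.0388) and in a fit without the intensity trend (0.0420). With the mean of its probe sets the difference of Rspo2 was 0.12 (limma adjusted p = 0.438), its other probe set, near background, having differed by −0.11. Rspo1, Rspo3, Rspo4, the stem cell receptor Lgr5 and the ligase Rnf43 were near background in both groups.

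Among the 9 secreted antagonists, Dkk2 fell to the background level and the other 8 did not pass. Dkk2, a ligand of Lrp5 and Lrp6 that blocks or modulates them, read 6.99, 7.02 and 7.50 in control and 5.31, 5.19 and 5.14 in shSep15 cells. The gap between the groups was wide, and control replicate 3 was the highest array. The difference was −1.96 (SE 0.15, limma adjusted p = 3.25e-05); because the shSep15 values are under the background level, the 25.8% of signal left is not an exact size. It rested on 1 probe set, and the difference stayed between −2.05 and −1.79 in the 13 alternatives run. The related Dkk1, Dkk3 and Dkk4 were near background in both groups, as were Sfrp2 and Wif1. The Frizzled-like decoys Sfrp5, Sfrp4 and Sfrp1 were above background with overlapping groups. Sfrp5 read 7.31, 7.47 and 7.82 against 7.39, 7.51 and 7.50, Sfrp4 6.84, 6.83 and 7.15 against 6.78, 7.21 and 7.02, and Sfrp1 6.44, 6.77 and 6.93 against 6.78, 7.07 and 6.83 in control and shSep15 cells. Their differences were −0.06 (95% interval −0.39 to 0.27), 0.06 (−0.28 to 0.40) and 0.18 (−0.16 to 0.52), and control replicate 3 was the highest control array in all 3.

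Wls, the carrier that takes Wnt proteins from the Golgi to the cell surface, fell in shSep15 cells. It read 10.63, 10.45 and 10.39 in control and 9.44, 9.31 and 9.65 in shSep15 cells. No shSep15 array came near a control array; the difference was −1.02 (SE 0.11, limma adjusted p = 0.000238), and 49.2% of the control signal remained. The 2 other Wls probe sets above background fell too (−0.77 and −0.40), and with a further dim set averaged in the difference was −0.55 (limma adjusted p = 0.000861). Axin1, the scaffold of the destruction complex, read 9.67, 9.79 and 9.75 in control and 9.52, 9.52 and 9.57 in shSep15 cells. Its groups were separate by a small margin, and the difference of −0.20 (95% interval −0.39 to −0.002) did not pass (limma adjusted p = 0.169). Axin2, a direct target of beta-catenin and a common readout of the pathway, was near background, at 5.94, 5.94 and 5.84 in control and 5.94, 5.90 and 5.97 in shSep15 cells, a difference of 0.03 (95% interval −0.19 to 0.26).

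**Figure D3:**
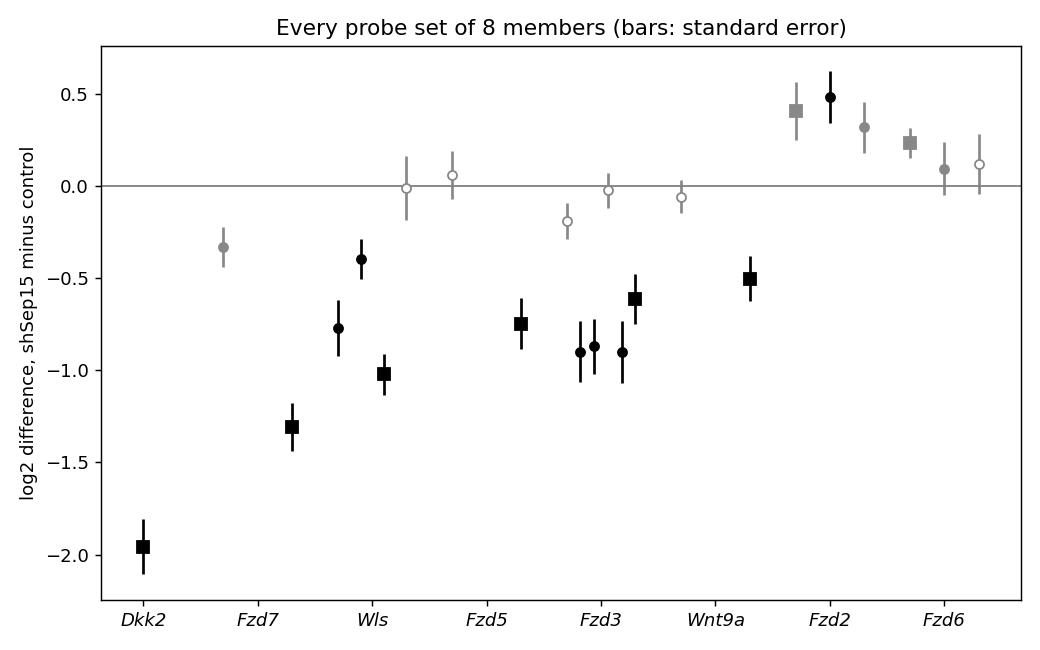
Log2 difference with its standard error (y axis) for each probe set of the 6 members that fell and of Fzd2 and Fzd6; squares are the brightest probe set of a gene, circles the others, black points passed the threshold and open points are near background. The 4 Fzd3 probe sets above background lie between −0.90 and −0.61, and the 3 of Wls above background between −1.02 and −0.40, while those of Fzd2 lie above 0.

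The 6 genes were compared with their neighbours in gene order, up to 10 above background on each side, because the median difference of some chromosomes lay away from 0. For scale, 19.2% of all genes above background were higher and 20.0% lower. Dkk2 and Wls lie on chromosome 3, whose 543 genes above background had a median difference of 0.26, the opposite direction. Of the 20 neighbours of Dkk2, 12 rose and 1 fell, with a median of 0.97. Wls is the last such gene on its chromosome; of its 10 neighbours 3 rose and 3 fell, with a median of 0.21. Fzd7 and Fzd5 lie near each other on chromosome 1, with a chromosome median of −0.08. Around Fzd7, 7 of 20 neighbours fell and 2 rose (median −0.19), and around Fzd5, 6 fell and 1 rose (median −0.08), with lowest values of −0.93 and −1.14. The neighbours of Fzd3 on chromosome 14 and of Wnt9a on chromosome 11 had medians of −0.07 and 0.04.

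**Figure D4:**
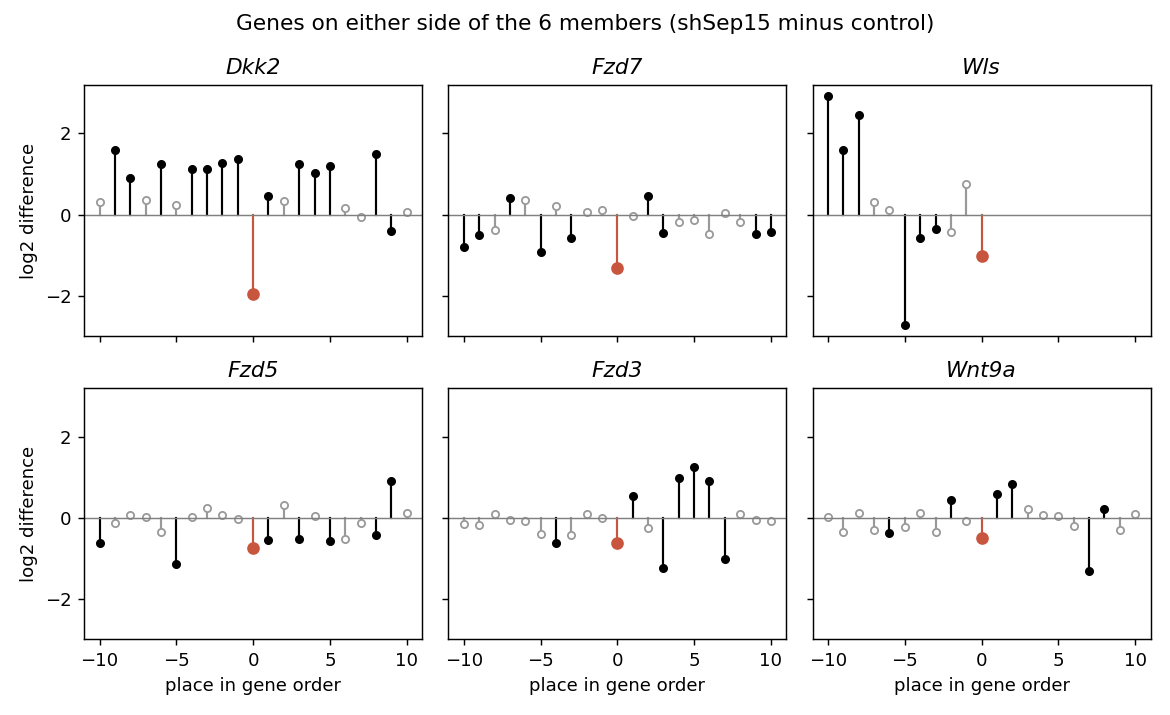
Log2 difference, shSep15 minus control (y axis), of each member that fell (red, place 0) and of up to 10 genes above background on each side in gene order (x axis); filled points passed the threshold. Most points around Dkk2 lie above 0 while Dkk2 itself is at −1.96, and the panel of Wls ends at place 0 because no gene above background follows it.

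Outside the 51 members, 5 lists of pathway genes were described, 104 genes measured of 108. In these lists 25 genes were lower and 13 higher (24.0% and 12.5%, against 12.8% and 12.2% of all genes). Of the 77 listed genes above background, 24 were lower (31.2%) and 13 higher, against 20.0% and 19.2% of all genes above background. The lists were chosen with earlier results of these data known, so these shares describe the lists and do not test the pathway. Secretion and extracellular modulators, 18 genes, had 5 lower and 0 higher, with a median of −0.03. Porcn, the acyltransferase that attaches the lipid to Wnt proteins, read 7.48, 7.60 and 7.62 in control and 6.44, 6.59 and 6.67 in shSep15 cells. The groups were separate by most of a log2 unit, and the difference was −1.0 (SE 0.12, limma adjusted p = 0.000311). Of the 20 neighbours of Porcn on chromosome X, 14 fell and 0 rose, with a median of −0.71. Vps35 and Vps26a, retromer subunits that recycle Wls, differed by −0.40 and −0.65 (limma adjusted p = 0.000547 and 0.000278), Vps35 being named after its value was seen. Igfbp4, a binding protein that also blocks Lrp6 and Frizzled, fell by 2.28, and the proteoglycan Gpc6 fell by 0.82 to under the background level, so its size is not exact. The Gpc6 call ended without shSep15 replicate 2 (−0.67, limma adjusted p = 0.0513). The cargo receptors Tmed5 and Tmed2 of the same list, named after their values were seen, did not pass (differences of −0.16 and −0.40, limma adjusted p = 0.433 and 0.241), Tmed2 being near background.

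Other receptors and planar polarity genes gave 3 higher and 2 lower of 21 (14.3% and 9.52%, against 12.2% and 12.8% of all genes). Vangl1, a core polarity protein, rose by 0.67 (limma adjusted p = 0.00150), on chromosome 3 beside neighbours with a median of 0.27. Nlk, a kinase that restrains TCF/LEF factors, rose by 0.63, and the polarity scaffold Scrib, singled out after its value was seen, by 0.43. Dact3, a Dvl antagonist, fell by 0.51, but its 2 other probe sets above background did not pass and their mean with it was −0.12 (limma adjusted p = 0.428). Celsr1 fell by 0.71 near background. This call was lost without any 1 of 5 arrays, control replicate 3 being the exception (limma adjusted p = 0.0558 to 0.0695). At the adjusted p threshold of 0.01 the list had 0 genes lower, so neither fall was firm. The call of Scrib ended without control replicate 2 or shSep15 replicate 2.

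In the destruction complex and beta-catenin list, 6 of 24 genes were lower and 2 higher (25% and 8.33%, against 12.8% and 12.2% of all genes). Of its 23 genes above background 26.1% were lower, against 20.0% of all such genes. Apc, the scaffold lost in most colorectal cancers, read 9.86, 9.55 and 9.63 in control and 9.07, 8.81 and 9.04 in shSep15 cells. Its groups were separate, and it fell by 0.71 (SE 0.12, limma adjusted p = 0.00257), as did both other probe sets above background. Apc and Csnk1g3, a kinase of Lrp6, which fell by 0.64, lie on chromosome 18, where the median difference was −0.30. Of the 20 neighbours of Apc, 13 fell and 1 rose, with a median of −0.47. Around Csnk1g3, 8 of 20 fell and 2 rose, with a median of −0.52. The phosphatase subunit Ppp2r5a fell by 0.75. Its other probe set, above background, differed by −0.32 without passing, and the mean of both was −0.53 (limma adjusted p = 0.00454). Of its 20 neighbours on chromosome 1, 8 fell and 2 rose, with a median of −0.34. The signal transducer Dvl2 fell by 0.57, a call that ended without control replicate 1 or shSep15 replicate 2 (limma adjusted p = 0.0532 and 0.0642). Also lower, and named after their values were seen, were Rnf146 (−0.44, limma adjusted p = 0.00212) and Tnks2 (−0.26, limma adjusted p = 0.0141). Both other Rnf146 probe sets above background fell too. Those of Tnks2 differed by −0.82 and 0.38, and the mean of its probe sets was −0.23 (limma adjusted p = 0.192). The 2 genes higher, also named after their values were seen, were the kinase Csnk1d (0.50) and Ctnnb1 itself. Of 4 other Csnk1d probe sets above background 1 passed, and the mean of its probe sets was 0.25 (limma adjusted p = 0.0222). Ctnnb1 read 11.98, 11.98 and 12.03 in control and 12.30, 12.23 and 12.35 in shSep15 cells, a rise of 0.30 (limma adjusted p = 0.00301). Its 2 other probe sets did not pass, and their mean with it was 0.20 (limma adjusted p = 0.0753).

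Nuclear cofactors moved in both directions, with 6 of 18 higher, 5 lower and a median of −0.01. These are 33.3% and 27.8%, against 12.2% and 12.8% of all genes. All of these calls lie among the 16 listed genes above background, where 31.2% were lower against 20.0% of all such genes. Bcl9, which ties beta-catenin to Pygo proteins, rose by 1.30 (SE 0.14, limma adjusted p = 0.000247) on chromosome 3, where 8 of its 20 neighbours rose and 0 fell. Averaged over its probe sets the difference of Bcl9 was 0.81 (limma adjusted p = 0.000384). The beta-catenin inhibitor Ctnnbip1 rose by 0.82 and the DNA-binding factor Tcf7l2 by 0.74. The call of Tcf7l2 ended without shSep15 replicate 1 or 3 (limma adjusted p = 0.0718 and 0.0724), neither of its other probe sets above background passed, and the mean of its probe sets was 0.48 (limma adjusted p = 0.0122). Hbp1, a repressor of TCF factors, fell by 0.94. The Groucho-type corepressors Tle1, Tle3 and Tle4, singled out after their values were seen, fell, with differences of −0.57, −0.72 and −0.71, while Tle2, near background, differed by 0.01 (limma adjusted p = 0.964). The remaining calls of the list, also named after their values were seen, were Smarca4 (0.73), Pygo2 (0.55) and Bcl9l (0.42), higher, and Ep300 (−0.61), lower. The calls of Bcl9l and Ep300 ended in 7 and 4 of the 13 alternatives.

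Of 23 transcriptional targets measured, 7 were lower and 2 higher (30.4% and 8.7%, against 12.8% and 12.2% of all genes). Of the 17 above background 41.2% were lower, against 20.0% of all such genes. The adhesion protein Nrcam fell by 2.78 to under the background level, so its size is not exact; with the mean of its probe sets Nrcam differed by −0.79 (limma adjusted p = 0.000228). The matricellular protein Ccn4 fell by 1.75. Myc, a target in colon carcinoma, read 11.02, 11.34 and 11.10 in control and 10.15, 9.82 and 10.39 in shSep15 cells. Its groups did not overlap, and it fell by 1.03 (SE 0.14, limma adjusted p = 0.000854). Id2 rose by 2.30 (limma adjusted p = 0.00392), with widely spread shSep15 arrays at 10.23, 9.25 and 8.17, and with the mean of its probe sets the rise was 1.31 (limma adjusted p = 0.00423). The cyclin Ccnd1, singled out after its value was seen, rose by 0.42. Of its 2 other probe sets above background, with differences of 0.13 and 0.73, 1 passed. The remaining targets that were lower, also named after their values were seen, were Vegfa (−0.94), Fosl1 (−0.83), Sox9 (−0.54) and Plaur (−0.53). The calls of Sox9 and Plaur each ended in 5 of the 13 alternatives. These targets also answer to other pathways. Of the 23, 17 were above background and 6 were near it in both groups. Above background without passing, and named after their values were seen, were Cd44 (0.26), Nkd1 (0.25), Lef1 (0.24) and Ephb3 (0.21). So were Sox4 (0.16), Nkd2 (0.01), Mmp7 (−0.05) and Jun (−0.20). The 6 near background, which include Sp5 and Ascl2, differed by −0.17 to 0.12.

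**Figure D5:**
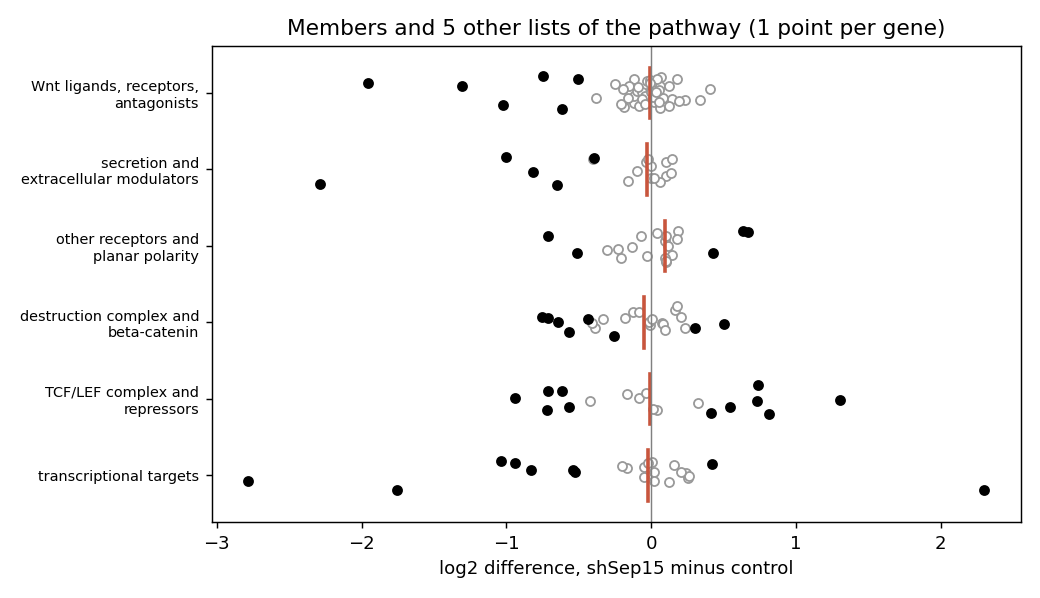
Log2 difference, shSep15 minus control (x axis), of each measured gene in the 51 members and 5 other lists of the pathway; black points passed the threshold, open points did not, and red bars are list medians. The medians lie between −0.05 and 0.10, and the points farthest out are Nrcam at −2.78 and Id2 at 2.30.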

How the data were processed

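RNA from 3 control and 3 shSep15 samples was hybridised to Affymetrix mouse arrays with 45101 probe sets. The deposited values are log2 expression levels that the authors made with RMA (background correction, quantile normalization and probe summary), per the submitters' processing notes; its version and settings are not stated there. RMA compresses differences of dim probe sets. After removal of 64 array controls, 45037 probe sets were tested with limma 3.58.1 in R 4.3.3 (lmFit and eBayes with an intensity trend), with Benjamini-Hochberg adjustment over all of them and a threshold of 0.05. Arrays hold no read depth, so the number of arrays, 3 in each group, limits the precision. A gene's value is the probe set with the highest mean over the 6 arrays among 34945 with 1 symbol in the platform annotation; 932 had several and 9160 none. The background level, 6.02, is the 95th percentile of 80 chemoreceptor probe sets. Members above background are named with every array, the others by range, and from each further list the 4 largest changes past the threshold; exceptions are stated. Members and lists were chosen with earlier results of these data known. Promoters are from RefSeq, GRCm38.p6, for 5 of the 6 genes that fell. Scripts were tested on simulated data. Alternatives covered the replicate block, trend, scaling, probe set choice, threshold and each array left out.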

Additional observations from a re-analysis of the deposited data

How the results depend on the processing

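In the 13 alternatives run, 0 results reversed. A reversal is a change of sign in a gene that passed the threshold in the fit reported or in the alternative. Of the members, 5 to 6 were lower against 6 in the fit reported. The 5 came from the adjusted p threshold of 0.01 and from leaving out control replicate 2, shSep15 replicate 1 or shSep15 replicate 3. Each of these lost Wnt9a. The number of members higher was 0 in the fit reported and 1 without the intensity trend (Rspo2), 1 with only probe sets above background tested (Fzd6) and 1 with the mean of the probe sets of a gene (Fzd2). Leaving out 1 array at a time gave 0 to 1 higher, the 1 being Rspo2 without control replicate 3. Of the 45 members not called, 27 changed sign in at least 1 alternative, among them Lrp6, Sfrp1, Sfrp4, Sfrp5, Axin2, Fzd10, Fzd10os, Lrp5, Wnt4, Wnt7a, Wnt7b and Wnt10b, so the signs of their printed differences are not settled. Over all genes 2220 were higher and 2323 lower, and at the 0.01 threshold 1475 and 1584, by construction of the stricter threshold. The background level was 5.56 with the 90th percentile of the same probe sets. In the 5 pathway lists, 10 to 15 genes were higher and 17 to 26 lower. The replicate numbers were not taken as pairs in the fit reported. Deviations of same-numbered arrays from their group means correlated at 0.38, −0.15 and −0.022, and those of differently numbered arrays at −0.362 to 0.367. With 3 arrays in each group these values cannot exclude a pairing. With the replicate number as a block, 6 members were lower and 0 higher, with 2246 genes higher and 2345 lower in all.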

Other observations

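Some probe sets carried the same value to the last deposited decimal on all 3 arrays of a group. This held for 515 of 45037 probe sets (1.14%), for 0.355% of those above background and for 1.86% of the others. Among the values used for the Wnt genes it held for 4 of 51, those of Wnt10a, Dkk4, Wnt2 and Wnt2b. Wnt10a, the only one above background, read 8.52 on each shSep15 array, and Dkk4 read 4.64 there. An SD of 0 in such a group does not measure the spread between samples.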
